A study of Homo sapiens with 2 samples.

Results

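RefSeq transcripts of the non-coding class (accessions that begin with NR_) were examined in HCT116 cells, an established human colon cancer cell line, that carried a pEB vector. The mock cells carried the vector without insert, and the HOXA5 short cells carried it with HOXA5 short RNA, a spliced non-coding transcript of the HOXA5 locus. Both were kept in blasticidin, the antibiotic that selects for the vector, for 2 weeks, and their total RNA, labeled with Cy3, was hybridized to Agilent whole-genome arrays. There was 1 array per group, so no difference was tested, and no value holds the spread between cultures. The labels do not say whether the selected cells were a pool or a clone.

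The members were the array's non-control probes with an NR_ accession that matched a current RefSeq gene, after small nucleolar, Cajal body and microRNA genes were left out, and that were well above background on either array. Of 50599 non-control probes, 5207 carried an NR_ accession, 4593 met the naming rule and 1184, from 806 genes, were members. A call of well above background is the scanner software's test of a spot against its local background. The dimmest member spots with this call had a signal of 7.76 in mock and 8.57 in HOXA5 short cells, and the brightest eligible probe without it on either array reached 9.89 and 10.6. The working name of long non-coding RNA fitted only part of the members. RefSeq filed 783 of them (500 genes) under long non-coding or antisense RNA, 338 (253 genes) under pseudogenes, and 36 (29 genes) under protein-coding genes that also make a non-coding transcript. The remaining 27 (24 genes) had other types, such as ribosomal, small nuclear and vault RNA, and are grouped here as structured RNAs. The members are therefore called non-coding transcripts here.

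A long non-coding RNA is transcribed by RNA polymerase II, is often spliced and carries no long open reading frame. Some, such as MALAT1 and NEAT1, stay in the nucleus at speckles and paraspeckles, some host small nucleolar RNAs (snoRNAs) in their introns, and some are read from the opposite strand of a coding gene or away from a shared promoter. Transcribed pseudogenes are copies of coding genes that no longer give the parent protein, and their probes can resemble the parent sequence. Vault RNAs, 7SK and RNase P RNA are made by RNA polymerase III and are short and folded.

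Promoter windows of GRCh38.p14, 250 bases before to 50 bases after the RefSeq start, were found for 407 of the 806 genes. Shown first are 3 snoRNA host genes, because many host genes start with a pyrimidine tract. Capitals mark CTTT at the start, on the strand that reads like the RNA. SNHG5 (chr6:85678684-85678983, minus strand) and ZFAS1 (chr20:49278392-49278691, plus strand) hold it from base 1 of the transcript, and SNHG16 (chr17:76557514-76557813, plus strand) from base 6.
SNHG5: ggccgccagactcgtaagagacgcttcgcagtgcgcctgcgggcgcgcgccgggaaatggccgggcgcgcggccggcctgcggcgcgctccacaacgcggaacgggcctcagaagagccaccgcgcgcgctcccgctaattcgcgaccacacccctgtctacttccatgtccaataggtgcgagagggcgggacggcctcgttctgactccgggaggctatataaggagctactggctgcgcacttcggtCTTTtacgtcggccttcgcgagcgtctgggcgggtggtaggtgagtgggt
ZFAS1: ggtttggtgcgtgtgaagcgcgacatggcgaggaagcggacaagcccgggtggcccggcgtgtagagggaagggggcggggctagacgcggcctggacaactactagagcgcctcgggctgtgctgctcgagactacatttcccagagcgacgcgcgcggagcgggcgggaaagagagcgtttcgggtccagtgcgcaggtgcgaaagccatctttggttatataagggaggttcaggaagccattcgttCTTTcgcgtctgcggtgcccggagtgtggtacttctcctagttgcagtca
SNHG16: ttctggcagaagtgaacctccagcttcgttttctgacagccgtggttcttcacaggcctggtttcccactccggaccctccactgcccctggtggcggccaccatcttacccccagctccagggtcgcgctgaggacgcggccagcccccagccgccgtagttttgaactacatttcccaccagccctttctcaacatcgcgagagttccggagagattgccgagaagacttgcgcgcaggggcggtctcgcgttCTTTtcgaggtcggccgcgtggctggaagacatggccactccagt
CTTT within 10 bases before to 16 bases after the start was found in 7 of 18 windows of member snoRNA host genes (38.9%), in 32 of 407 windows of all members (7.86%) and in 2925 of 27305 windows in the table (10.7%). The count covers only the strand that reads like the RNA, and a match of letters is a description, not a site. Of the 7 host genes with these letters, SNHG16 alone was above 0: taken as HOXA5 short minus mock on the log2 scale, its value was 0.66, and the means over probes of the other 6 were -0.41 for SNHG4, -0.23 for SNHG8, -0.18 for ZFAS1, -0.16 for SNHG5, -0.11 for SNHG29 and -0.04 for SNHG12. Of the 11 host genes without them, 6 were above and 5 below 0. Most of these 18 values were smaller than the SD between single spots given below. The signs also depend on the scaling: with the spike-ins set equal every value would rise by 0.47, and all 18 would stand above 0. A link between these letters and the difference was not tested.

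The next windows belong to 2 long non-coding RNAs with a probe that was over 2-fold higher with HOXA5 short RNA. HCG11 (chr6:26521456-26521755, plus strand) lies near the HLA region, and NORAD (chr20:36050911-36051210, minus strand) binds Pumilio proteins. Capitals mark the best ungapped segment that both windows share, 40 bases with 37 identical and 3 different, which runs from base 10 to base 49 after the HCG11 start and from base 1 to base 40 after the NORAD start. It thus lies wholly in the transcribed part of both. How often other windows share such a segment was not counted, and whether a probe of one gene also reads the other is not known. The brighter NORAD probes were not higher, at -0.29 and -0.21.
HCG11: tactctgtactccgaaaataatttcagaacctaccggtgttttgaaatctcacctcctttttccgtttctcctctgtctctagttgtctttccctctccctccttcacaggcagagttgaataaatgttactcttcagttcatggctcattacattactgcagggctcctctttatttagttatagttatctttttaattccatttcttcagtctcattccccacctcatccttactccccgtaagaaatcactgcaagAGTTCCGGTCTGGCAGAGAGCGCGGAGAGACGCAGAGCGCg
NORAD: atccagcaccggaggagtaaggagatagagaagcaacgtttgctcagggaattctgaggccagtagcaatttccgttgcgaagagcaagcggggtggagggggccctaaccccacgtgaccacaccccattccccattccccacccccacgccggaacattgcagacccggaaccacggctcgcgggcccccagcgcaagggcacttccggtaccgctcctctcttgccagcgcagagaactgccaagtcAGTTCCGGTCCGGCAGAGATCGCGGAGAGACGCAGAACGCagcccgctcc
The last window is that of MALAT1 (chr11:65497488-65497787, plus strand), which had the probe with the largest decrease among those well above background on both arrays. Capitals mark GGGCGG on either strand, the core of a GC box, which 209 of 407 member windows (51.4%) and 12174 of 27305 windows (44.6%) held.
MALAT1: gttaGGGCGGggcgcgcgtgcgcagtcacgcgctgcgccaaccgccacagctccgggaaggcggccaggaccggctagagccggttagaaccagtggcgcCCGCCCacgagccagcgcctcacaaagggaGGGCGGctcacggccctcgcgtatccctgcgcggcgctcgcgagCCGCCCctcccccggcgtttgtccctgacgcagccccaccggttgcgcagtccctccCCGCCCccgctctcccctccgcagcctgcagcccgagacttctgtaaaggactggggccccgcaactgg
The TATA letters TATAAA on either strand were found in 32 member windows (7.86%) against 12.0% of all windows, and CCAAT in 159 (39.1%) against 35.7%.

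The label check came first. The HOXA5 probe, filed under a coding transcript on chromosome 7 and no member, had a processed signal of 39.4 (error of the scanner software 4.32) in mock and 346 (error 34.6) in HOXA5 short cells, a log2 difference of 2.83. The paper that reported these cells found, by quantitative PCR, more HOXA5 short RNA and unchanged coding HOXA5 mRNA. The short RNA shares the last HOXA5 exon with the mRNA. Probe sequences are not used here, so whether this probe read the mRNA, the short RNA or both cannot be told apart. Of 9 markers of colon epithelium, 7 were well above background on both arrays, with KRT19 brightest at 30237 and 36346, and VIL1 and LGALS4 were at background. Of 7 markers of immune, stromal, endothelial and liver cells, COL1A1 alone was detected, at 16.7 and 22.6. On the 2 arrays, 36.4% and 37.5% of the non-control probes were well above background. The 7 RNA spike-ins that were detected all fell below 0 by the measure used here, between -0.66 and -0.04 with a median of -0.47, and setting them equal would raise every difference given here by 0.47.

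Of the 4593 eligible probes, 25.8% were members, and of 24978 named mRNA probes, 59.7% were well above background on either array. The detected share was 22.3% for long non-coding RNA, 35.8% for pseudogenes, 31.9% for non-coding transcripts of coding genes and 87.1% for structured RNAs. Of the members, 1032 (713 genes) were well above background on both arrays, 104 in HOXA5 short cells only and 45 in mock cells only. The remaining 3 were probes for RPL23AP32 and OR2A9P, with 1 detected spot of 10 in mock cells each and with 0 and 5 in HOXA5 short cells, and for LINC00882, whose spot was marked as an outlier. The median processed signal of the 1032 compared members was 42.1 in mock and 48.9 in HOXA5 short cells, against 109 and 136 for compared mRNA probes. These are medians over different probes and do not rank transcripts.

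Values are given as log2 of the processed signal after the 75th percentile of each array was subtracted, HOXA5 short minus mock. That percentile was 35.6 in mock and 44.0 in HOXA5 short cells. The median difference of the 1032 members was -0.04 and their SD 0.35, close to the -0.02 and 0.33 of all 17938 compared probes. The middle of the distribution was narrow, with quartiles at -0.21 and 0.15, and 88.7% of the members lay within 0.5 of 0 against 90.8% of all probes. A reference for the size of such differences came from 593 probes printed in several spots, for which the SD of the difference between single spots was 0.26. It was 0.32 for signals below 15, 0.29 from 15 to 50, 0.26 from 50 to 200 and 0.23 above 200. The SD over the members of the same brightness was 0.34, 0.38, 0.30 and 0.34.

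In HOXA5 short cells, 12 members were higher by 2-fold or more, and 2 were lower by as much. A change in the share of cells that hold an RNA and a change in the RNA per cell cannot be told apart in such bulk samples. The 12 are 1.16% of the compared members, and over all compared probes 1.06% passed in this direction. The 2 are 0.194%, and over all probes 0.318% passed. The share of members past 2-fold was thus near that of the whole array. Scaling over detected probes gave 9 higher and 3 lower members, and scaling to the spike-ins 56 and 1. The higher members were 4 long non-coding RNAs (HCG11, NUTM2A-AS1, MAFTRR and NORAD), 5 pseudogenes (RPS10P7, SBDSP1, FRG1BP, KRT18P55 and SUGT1P1), a non-coding transcript of SARS1, and the structured RNAs SNAR-A3 and VTRNA1-2. The lower members were probes for MALAT1 and SNHG5. The 14 differences were 3.44 to 10.3 times the single-spot SD of their brightness. They were picked at 2-fold and that SD was 0.32 at most, so the low end of this range follows from the cut-off. The SD was taken over the whole array and not by position. In the plot of signals, most members lie along the line of equality.

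**Figure D1:**
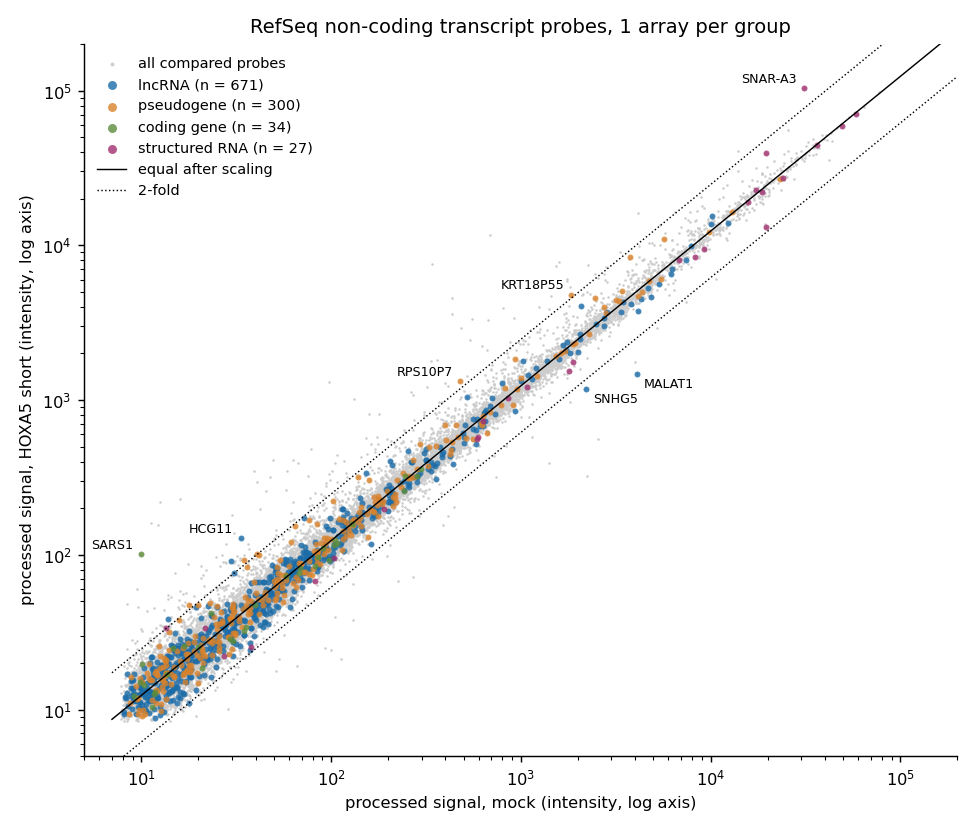
Processed signal (intensity, log axes) in mock against HOXA5 short cells for all 17938 compared probes (grey) and the 1032 members, coloured by RefSeq class. Each point is 1 probe on 1 array per group. The solid line marks equality after 75th percentile scaling and the dotted lines a 2-fold difference, and 12 members lie above and 2 below them.

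Among members well above background on both arrays, the SARS1 transcript had the largest difference. SARS1 encodes the cytosolic seryl-tRNA synthetase. The probe for its non-coding transcript gave 9.90 (error 2.09) in mock and 101 (error 10.3) in HOXA5 short cells, a log2 difference of 3.04. Around this spot, 10 of the 18 other well-measured spots within 4 grid rows and columns also differed 2-fold, with a median difference of 1.08. The coding SARS1 probe, elsewhere on the array, gave 1948 and 2112, a log2 difference of -0.19. With the local median subtracted, the non-coding SARS1 value was 1.96, and after normexp background correction it was 1.04. Normexp was run here with an offset of 50 added to every signal, which by itself draws the differences of dim probes toward 0.

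Among the long non-coding RNAs, HCG11 gave 33.3 (error 3.91) in mock and 128 (error 13.0) in HOXA5 short cells, or 1.64 on the log2 scale. It was measured by 1 probe, in the last grid column, and 1 of 19 spots around it differed 2-fold. NUTM2A-AS1, read antisense to a member of the NUTM2 gene family, was measured by 2 probes that went apart: 29.7 and 90.7 for one (log2 difference 1.31) and 169 and 178 for the other (-0.24). MAFTRR, a transcript next to the transcription factor gene MAF, gave 13.9 (error 2.41) and then 38.3 (error 4.36), 1.16 on the log2 scale. NORAD had 3 compared probes. The dimmest gave 30.8 and 76.7, a log2 difference of 1.01, and the brighter probes gave 145 and 146 (-0.29) and 256 and 273 (-0.21). The remaining NORAD probe was detected in HOXA5 short cells only (9.53 and 19.5), 1.66-fold higher by its own signals. The probes of NUTM2A-AS1 and of NORAD thus did not agree on a 2-fold difference. After normexp correction none of these 4 values reached 2-fold: HCG11 stood at 0.86, NUTM2A-AS1 at 0.56, NORAD at 0.44 and MAFTRR at 0.26. These 4 probes were dim in mock cells, where the offset alone lowers a difference, so this shortfall cannot decide whether they hold. The NORAD value also fell short with the local median subtracted (0.86) and, barely, under scaling over detected probes.

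The pseudogenes past 2-fold are given beside the genes they copy. RPS10P7, a copy of the ribosomal protein gene RPS10, gave 480 (error 48.1) in mock and 1322 (error 132) in HOXA5 short cells (log2 difference 1.16), while the 4 RPS10 probes lay between -0.08 and 0.04. SBDSP1, a copy of the ribosome maturation gene SBDS, gave 17.7 and 47.2, a log2 difference of 1.11, with both SBDS probes at 0.15 and 0.19. KRT18P55, a copy of the epithelial keratin gene KRT18, gave 1842 (error 184) and 4801 (error 480) in the same order (log2 difference 1.08), and the KRT18 probes were at 0.13 and 0.22. FRG1BP, a pseudogene of the FRG1 family, gave 34.7 and 92.1, a log2 difference of 1.11, and the 3 FRG1 probes lay between -0.22 and 0.13. SUGT1P1 gave 40.8 and 101, just past 2-fold, and the SUGT1 probe also differed, with 27.6 and 89.2 (log2 difference 1.39). Of the 5 parent genes, SUGT1 alone was past 2-fold itself. After normexp correction SBDSP1 stood at 0.33, FRG1BP at 0.49 and SUGT1P1 at 0.60, all short of 2-fold, while RPS10P7 (1.24) and KRT18P55 (1.20) stayed past it. Those that fell short were the dim ones, whose values the offset alone lowers. With the local median subtracted, KRT18P55 (0.96) and SUGT1P1 (0.97) fell just short. Probe sequences are not used here, so how far a probe reads a copy and how far its parent cannot be told apart.

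The structured RNAs past 2-fold both lay in uneven array zones, meaning that at least 10% of at least 10 well-measured spots around them differed 2-fold. SNAR-A3, a small RNA bound by the protein NF90, gave 30987 (error 3099) in mock and 103816 (error 10382) in HOXA5 short cells (log2 difference 1.44), and 9 of 24 surrounding spots differed 2-fold. With the local median subtracted it was at 0.78, short of 2-fold. The 7 SNAR probes ranged from -0.88 (SNAR-G2, 19500 and 13048) to 1.44. The SNAR genes are near-identical copies, so their signals are uncertain. VTRNA1-2, a vault RNA, gave 13.5 and 33.5 (log2 difference 1.01), with 4 of 21 surrounding spots 2-fold different, and stood at 0.22 after normexp correction and 0.98 with the local median subtracted, while VTRNA1-3 was at -0.42 and VTRNA2-1 at -0.60.

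MALAT1, an abundant nuclear RNA that associates with splicing speckles, had 8 compared probes, and all were lower with HOXA5 short RNA, although only 3 would be with the spike-ins set equal and 7 after normexp background correction. The brightest probe gave 4084 (error 408) in mock and 1476 (error 148) in HOXA5 short cells, a log2 difference of -1.77. The other 7 ranged from -0.66 to -0.15 with a median of -0.24. Of the 31 spots around the brightest probe, 1 differed 2-fold. The transcript was therefore 3.42-fold lower by that probe and less than 2-fold lower by each of the others.

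SNHG5, a snoRNA host gene, had 18 compared probes, the most of any gene shown here. The probe past 2-fold gave 2203 (error 220) in mock and 1179 (error 118) in HOXA5 short cells (log2 difference -1.21), and 0 of 23 surrounding spots differed 2-fold, with a median of -0.21. It fell short of 2-fold with the local median subtracted (-0.99) and with the spike-ins set equal (-0.74). The other 17 ranged from -0.46 to 0.55 with a median of -0.16. Their signals in mock cells ran from 210 to 5374, so none was dim, and the probe with the lowest signal, 210 and 379, was the one at 0.55 and lay in an uneven zone.

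Below 2-fold, the next 8 lower values were those of dim probes, and of the bright SNAR-G2. HYMAI, an imprinted transcript at the PLAGL1 locus, gave 17.9 and 11.1 and was 1.99-fold lower. A NUTM2B-AS1 probe gave 37.3 and 24.4 (-0.92), and RNU12, the U12 RNA of the minor spliceosome, gave 37.7 and 25.5 (-0.87). THUMPD3-AS1 was at -0.84, a LINC-PINT probe at -0.84, a CCDC18-AS1 probe at -0.79 and FAM238C at -0.78. All lay between 1.72-fold and 2-fold lower. None lay in an uneven zone, although SNAR-G2, with 8 well-measured spots around it, had too few for such a zone to be called. After normexp correction the 7 dim probes stood between -0.35 and -0.18 and SNAR-G2 at -0.95, and with the spike-ins set equal all 8 stood between -0.53 and -0.32. The normexp offset alone draws the dim values toward 0.

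The called members were not spread evenly over the array. In grid columns 1 to 14, 6 of 78 compared members (7.69%) differed 2-fold, against 8 of 954 (0.839%) in the other columns. All compared probes had the same imbalance, with 6.31% (92 of 1457) and 0.940% (155 of 16481). Both lower members, MALAT1 in column 11 and SNHG5 in column 12, lay in this strip, as did SARS1, SNAR-A3, NUTM2A-AS1 and VTRNA1-2. Of the 14, 3 lay in uneven zones (SARS1, SNAR-A3 and VTRNA1-2), and without these zones 9 members were higher and 2 lower. The part of position in the other 11 was not tested.

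**Figure D2:**
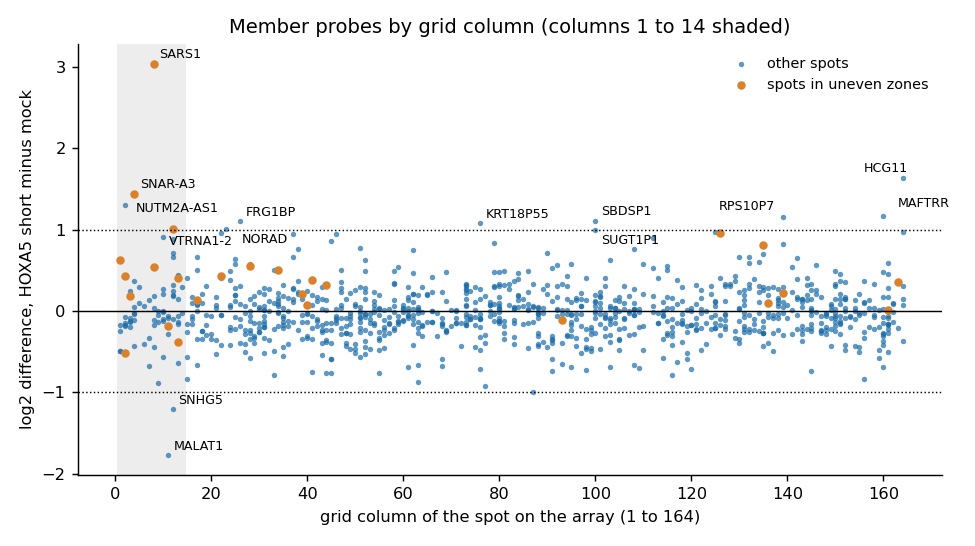
Log2 difference (HOXA5 short minus mock) of the 1032 compared members against the grid column of their spot, with spots in uneven zones in orange and columns 1 to 14 shaded. The dotted lines mark 2-fold. Of the 14 members past 2-fold, 6 lie in the shaded strip.

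Genes with several probes gave a check of single values. At least 4 compared probes were available for 33 genes, and 28 of them had probes of both signs. The range within a gene had a median of 0.63, and the SD of probes within a gene was 0.31 (root mean square). All probes were lower for 5 genes (15.2%), MALAT1, NEAT1, NUTM2B-AS1, SNHG20 and RNA28SN5, and all were higher for 0. Over all 119 genes with at least 4 compared probes, 11.8% had every probe lower and 5.88% every probe higher. Scaling to the spike-ins instead of the 75th percentile would leave 0 of these 5 genes with every probe lower, and scaling to the median would turn all RNA28SN5 probes and 1 probe each of NUTM2B-AS1 and SNHG20 positive. After normexp correction 0 of 4 RNA28SN5, 5 of 6 NUTM2B-AS1 and 7 of 8 MALAT1 probes were below 0. With the local median subtracted, 5 of 6 NUTM2B-AS1, 3 of 4 SNHG20 and 2 of 4 RNA28SN5 probes were. The 4 NEAT1 probes stayed below 0 under every alternative run except scaling to the spike-ins. Differences from the median of all compared probes do not depend on the scaling factor, and are given for the 5 genes.

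NEAT1 is the RNA scaffold of nuclear paraspeckles. Its 4 probes gave 44.4 and 36.8, 51.0 and 46.7, 438 and 387, and 936 and 850 in mock and HOXA5 short cells. The log2 differences ran from -0.57 to -0.43 with a median of -0.46, which is 0.44 below the median of all compared probes (-0.44). Scaled to the spike-ins, the NEAT1 median was 0.00. The 8 MALAT1 probes had a median 0.22 below all probes (-0.22), the 6 NUTM2B-AS1 probes 0.30 below (-0.30, range of log2 differences -0.92 to -0.09), and the 4 SNHG20 probes 0.19 below (-0.19). The 4 probes for 28S ribosomal RNA (RNA28SN5) agreed within 0.07 and stood at -0.02 from all probes. NUTM2A-AS1 and NUTM2B-AS1 are transcripts of paralogous loci on chromosome 10. The 2 NUTM2A-AS1 probes stood apart, at 1.31 (dim) and -0.24 (brighter), and the 6 NUTM2B-AS1 probes had a median of -0.32.

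**Figure D3:**
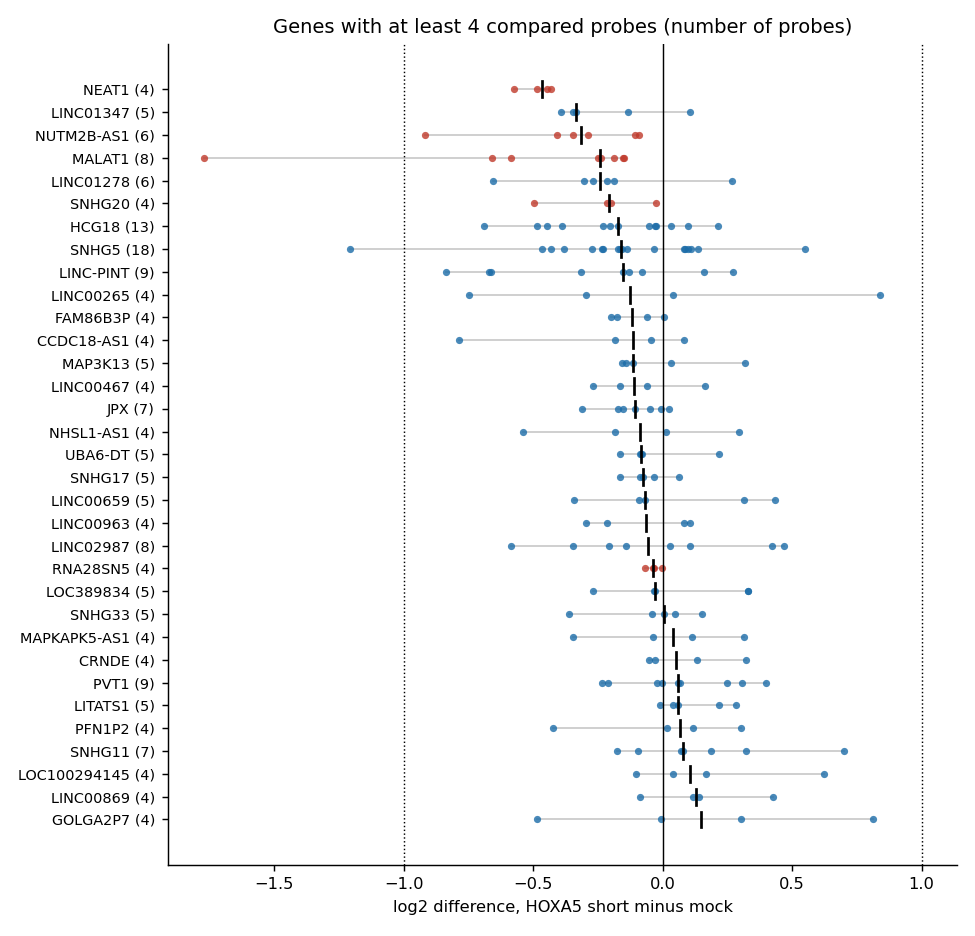
Log2 difference (HOXA5 short minus mock) of each probe (points) for the 33 genes with at least 4 compared probes, with the gene's median (black tick) and range (grey line). Red points mark the 5 genes with every probe below 0. NEAT1 has the lowest median at -0.46, and only 1 MALAT1 probe and 1 SNHG5 probe pass 2-fold (dotted lines).

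The lists of non-coding RNAs had medians between -0.31 and 0.01. The 5 probes of the HOX cluster list with values had a median of 0.01, with 3 above and 2 below 0, and 0 past 2-fold. HOTAIRM1, at the start of the HOXA cluster that also holds HOXA5, gave 166 and 181 (log2 difference -0.18), and HOXA11-AS, at its other end, gave 50.2 and 62.6 (0.01). HOXD-AS2 gave 121 and 187 (0.33) and HOXB-AS3 gave 11.3 and 15.9 (0.19). HOTAIR, which recruits chromatin modifiers from the HOXC cluster, had a probe at -0.24 and a second that was detected in HOXA5 short cells only, at least 1.23-fold higher. The sign of this list's median turned under scaling over detected probes and with the local median subtracted.

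The snoRNA host genes were the largest list, with 54 compared probes for 21 genes. Their median was -0.09, with 19 probes above and 35 below 0 and 1 past 2-fold, the SNHG5 probe. This median turned positive under median scaling (0.01), spike-in scaling (0.38) and normexp background correction (0.03). SNHG5 gave 18 of the 54 probes. Over the means of the 21 genes the median was -0.06, with 8 genes above 0. SNHG16 gave 2068 and 4047 (log2 difference 0.66), SNHG10 8.94 and 15.5 (0.49), and SNHG4 10.6 and 9.85 (-0.41). Other host genes lay closer to 0: GAS5 gave 7910 and 9892 (0.02), SNHG29 12400 and 13936 (-0.14), ZFAS1 7405 and 8074 (-0.18), SNHG8 6175 and 6519 (-0.23) and SNHG1 3352 and 3732 (-0.15). The 7 SNHG11 probes ranged from -0.18 to 0.70.

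The nuclear and scaffold list had 29 compared probes for 9 genes, of which 26 were below 0. Its median of -0.20 was 0.18 below that of all probes (-0.18), and the list median was 0.27 under spike-in scaling, -0.10 under median scaling and -0.05 after normexp correction. Of these probes, 12 belong to MALAT1 and NEAT1 and 7 to JPX, which acts at the X inactivation centre and had a median of -0.11, so the probes are not independent. The p53-linked list had 16 compared probes for 3 genes, LINC-PINT, NEAT1 and NORAD, with a median of -0.31 (0.16 under spike-in scaling and -0.12 after normexp correction) and 13 probes below 0. By the means of the 3 genes the median was -0.27, with 1 gene above 0. The NEAT1 and NORAD probes are also in the nuclear and scaffold list. LINC-PINT ranged from -0.84 to 0.27 over 9 probes.

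Among lncRNAs linked to colorectal cancer, 24 probes for 9 genes had a median of -0.03, with 10 above and 14 below 0 and 0 past 2-fold. PVT1, next to MYC, had 9 probes from -0.23 to 0.40. The brightest PVT1 probe gave 793 and 1293. UCA1 gave 2493 and 3109 with its bright probe (0.01), CRNDE had 4 probes from -0.05 to 0.32, CYTOR gave 607 and 681 (-0.14), and CCAT1 gave 59.1 and 69.0 with its brighter probe (-0.08). H19, an imprinted RNA, was dim, and its probes gave 24.9 and 18.8 (-0.71) and 16.1 and 15.3 (-0.38). The median of this list turned positive under median scaling (0.07), spike-in scaling (0.44), normexp correction (0.01) and local median subtraction (0.01). Over the means of the 9 genes the median was -0.14, with 4 genes above 0.

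The imprinted list had 4 compared probes, with a median of -0.29 (0.18 under spike-in scaling, -0.19 under median scaling and -0.07 after normexp correction): besides both H19 probes, KCNQ1OT1 gave 204 and 219 (-0.20) and MEG3 gave 114 and 199 (0.50). The interferon and HLA region list had 16 compared probes with a median of -0.04, which turned positive under median scaling (0.06), spike-in scaling (0.42) and normexp correction (0.00). It held HCG11 at 1.64, 13 HCG18 probes from -0.69 to 0.21, HCP5 (25.9 and 37.0, 0.21) and HLA-F-AS1 (1658 and 2264, 0.15). The list median is thus mainly that of HCG18. Over the means of the 4 genes the median was 0.18, with 3 genes above 0. In the polymerase III and small structured list, 11 of 13 probes were below 0 and the median was -0.26. It was 0.21 under spike-in scaling, -0.16 under median scaling, -0.12 after normexp correction and -0.06 with the local median subtracted. RN7SK, which holds the elongation factor P-TEFb inactive, gave 6825 and 8041 (-0.07), RN7SL1, of the signal recognition particle, 9248 and 9517 (-0.26), RPPH1, of RNase P, 190 and 196 (-0.26), TERC, the telomerase template, 852 and 1025 (-0.04), and RMRP 631 and 736 (-0.08). As background, most of these RNAs lack a poly(A) tail.

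**Figure D4:**
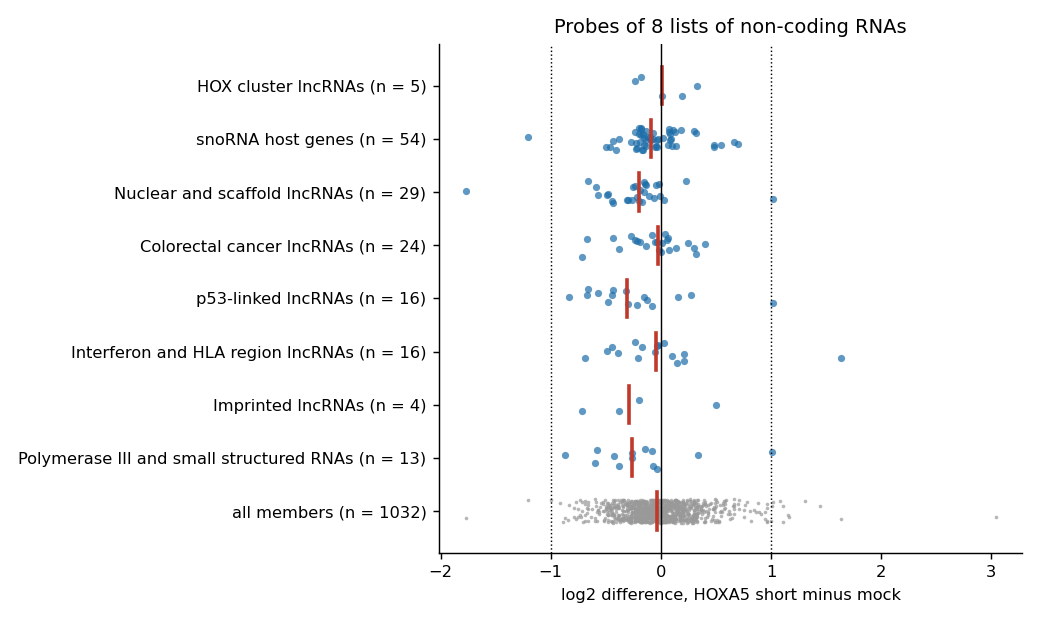
Log2 difference (HOXA5 short minus mock) of the compared probes in 8 lists of non-coding RNAs, each point 1 probe, with all 1032 members at the bottom. Red ticks are medians, which run from -0.31 to 0.01 for the lists and stand at -0.04 for all members. Some genes are in more than 1 list.

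By class, the median difference was -0.05 for 671 long non-coding RNA probes, 0.00 for 300 pseudogene probes, -0.05 for 34 non-coding transcripts of coding genes and -0.12 for 27 structured RNA probes. Within long non-coding RNA, the median was -0.02 for 195 probes of antisense names, -0.03 for 186 probes of LINC names, -0.08 for 56 probes of divergent transcripts, -0.10 for 31 probes of LOC names and -0.27 for 7 probes of intronic or overlapping transcripts. By chromosome, over the 21 with at least 20 compared members, medians ran from -0.19 on chromosome 11, which holds MALAT1 and NEAT1, to 0.09 on chromosome 14. Chromosome 7, where HOXA5 lies, had 78 members with a median of -0.02.

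Antisense RNAs could be set beside their sense genes for 105 pairs. The pair had the same sign in 46, and Pearson's r over pairs was -0.04, a description over genes measured on the same 2 arrays. THUMPD3-AS1 was at -0.84 and THUMPD3 at 0.01, CCDC18-AS1 had a mean of -0.23 over 4 probes and CCDC18 was at 0.16, and GABPB1-AS1 was at -0.49 with GABPB1 at -0.22. HLA-F-AS1 was at 0.15 and HLA-F, with 2 probes, at 0.56. The widest gap of the 105 pairs lay between HECTD2-AS1 at 0.20 and HECTD2 at -0.95, and ELFN1-AS1 was at 0.40 beside 1.37 for ELFN1. Of 34 divergent transcripts, 17 had the sign of their neighbour (r = 0.17).

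Pseudogenes could be set beside the parent gene in 121 pairs, and 68 had the same sign (r = 0.17). Of these pseudogenes, 4 were past 2-fold, 2 of the parents were, and 1 pair had both, SUGT1P1 and SUGT1. SLC25A3P1 was at 0.15 although the probe for SLC25A3, a mitochondrial phosphate carrier, was at 3.78. The array area around that single probe is not given here, so the part of position in its value was not tested. In 23 coding genes with both kinds of probe, 14 non-coding transcripts had the sign of the coding probes.

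**Figure D5:**
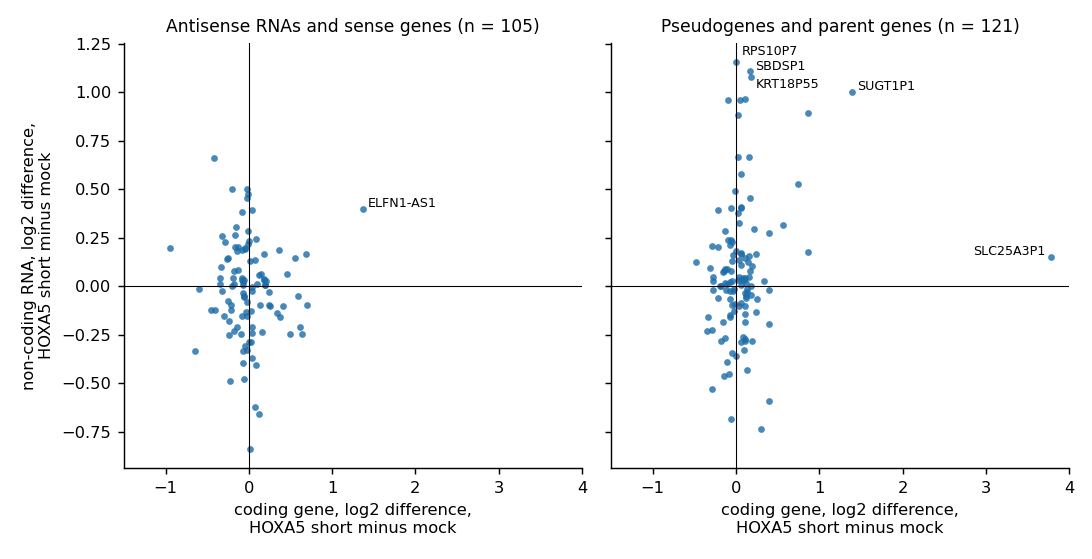
Log2 difference (HOXA5 short minus mock) of antisense RNAs against their sense genes (left, 105 pairs) and of pseudogenes against their parents (right, 121 pairs), each point the mean over the compared probes of both genes. Pairs with a value past 2-fold are named. SUGT1P1 is the pair with both values past 2-fold.

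For members detected on 1 array only, a bound was set from the bright value and, on the dim side, whichever was higher of the probe's own signal and the dimmest signal called well above background, which was 7.74 in mock and 8.0 in HOXA5 short cells. Where the probe's own signal was the higher, the bound is the plain difference and not a lower limit. Of 104 members detected with HOXA5 short RNA only, 1 (0.962%) had a bound of at least 2-fold, against 6.12% of all such probes. Of 45 detected in mock only, 4 (8.89%) did, against 14.3%. The balance turned with the scaling, to 4 higher and 2 lower bounds under median scaling and 24 and 2 with the spike-ins set equal. HAR1B, a transcript of the human accelerated region 1 locus on chromosome 20, had the largest bound: 219 (error 26.7) in mock and 9.90 (error 2.26, not well above background) in HOXA5 short cells, 27.3-fold lower by its own signals. Its spot lay in column 7, and 0 of 30 surrounding spots differed 2-fold. LOC729218 was 2.81-fold lower by its own signals (19.2 and 8.42). SNAI3-AS1 was at least 2.13-fold lower (13.8 and 7.6), GGT3P at least 2.02-fold lower and LINC01372 at least 1.93-fold lower. SRP14-DT was 2.36-fold higher by its own signals (9.35 and 27.2), in an uneven zone in column 2. SLC22A20P was 1.99-fold higher by its own signals. LINC00930, LOC90246 and FAM27E3 were at least 1.93, 1.92 and 1.86-fold higher, and LINC00930 and FAM27E3 also lay in uneven zones.

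Among members well above background on both arrays, probes printed in 10 spots gave the most precise values. LINC00467 had a mean log2 difference of -0.17 ± 0.09 (SD, n = 9 spots), below 0 in every unflagged spot, with signals from 302 to 376 in mock and from 340 to 411 in HOXA5 short cells. The other LINC00467 probes stood at 0.16, -0.06 and -0.27, and with the spike-ins set equal all 4 probes were above 0. HLA-J, a pseudogene of the HLA class I family, was at 0.23 ± 0.18 (SD, n = 9 spots), with 8 spots above 0 and signals from 3006 to 3755 and from 4113 to 5379. BTF3P11 was at -0.03 ± 0.20 (SD, n = 9 spots). These SDs hold the error of the spots and not that of cultures or labelings.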

How the data were processed

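The authors quantified the arrays with Feature Extraction 11.5.1.1 (per the file headers) and deposited its output, in which the processed signal of each spot is an intensity on a linear scale after background correction. They also deposited a log2 table of 19461 probes, used as an alternative. Its scaling is not given in the sources used here, each probe is centred on its own mean, and its differences were shifted by 0.002 (median) from those used here.

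Log2 processed signals were averaged over the unflagged spots of a probe, and the 75th percentile of all non-control probes was subtracted per array. Accessions were matched without versions to RefSeq genes of GRCh38.p14: 4953 of 5207 NR_ probes matched, 360 were then left out as small nucleolar, Cajal body or microRNA genes, and 254 had no match. With 1 array per group there was no test, and precision is limited by the number of arrays. A probe was called at 2-fold. Named are HOXA5, the 10 highest and 10 lowest members, the 5 largest bounds each way, list members, genes with at least 4 compared probes and antisense RNAs among these. Pairs of pseudogenes, divergent transcripts and coding transcripts, and the remaining called members, were added after their values were seen. The members and lists were chosen with earlier results of these data known. Alternatives were scaling to the median, over detected probes or to spike-ins, quantile normalization and normexp (offset 50, on median signals, limma 3.58.1 in R 4.3.3), the deposited log2 values, both position corrections, other filters, thresholds of 1.5-fold and 3-fold, and counts by gene. Tables were made with Python 3.11.15, NumPy 2.4.6 and pandas 2.3.3, and the steps were tested on simulated data.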

Additional observations from a re-analysis of the deposited data

Results flagged for a closer look

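Probes with a RefSeq non-coding accession but without a current gene record gave signal outside the comparisons of the report: 93 of 254 were well above background on either array. Of the 78 measured on both arrays, 0 were 2-fold higher and 0 were 2-fold lower, and their median log2 difference was -0.05.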

How the results depend on the processing

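No paired analysis was possible because each group had 1 array and no test was made. The scaling set the level: with the spike-ins held equal, 56 members were at least 2-fold higher and 1 lower, the member median was 0.43, 26 bounds passed 2-fold in place of 5, and the list medians were 0.48 (HOX cluster), 0.38 (snoRNA hosts), 0.27 (nuclear), 0.44 (colorectal), 0.16 (p53-linked), 0.42 (interferon and HLA), 0.18 (imprinted) and 0.21 (polymerase III). Median scaling gave 19 higher members, 90.5% of its calls against 85.7% in the main setting. Normexp correction, whose offset of 50 by itself lowers the differences of dim probes, gave 4 higher. A signal above the median on both arrays gave 3 higher of 296 probes. Without a filter on dim probes, and in the deposited log2 values, 40 were higher and 18 lower. At 1.5-fold, 45 were higher and 36 lower, and at 3-fold, 2 and 1. Counted by gene, 10 of 713 were higher and 0 lower, since the other MALAT1 and SNHG5 probes averaged out the calls. Of the 14 calls, 14 were also made under quantile normalization, 11 without uneven zones, 8 with the local median subtracted and 6 under normexp. The 20 named differences kept their sign under every alternative that gave them a value. They were picked as the extremes, and those nearest 0 stood at -0.78 and 1.01. The spike-in shift was 0.47, so no scaling run here could have turned a sign. Dim probes limit the comparison: 157 of the compared members had signals below 15, where the single-spot SD was 0.32.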
